A study of Mus musculus with 8 samples.

Results

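The genes described here are 9 genes of acetylcholine signalling: Chat, Slc18a3 and Slc5a7, which make, pack and recover the transmitter, Ache, which breaks it down, the nicotinic receptor subunits Chrna3, Chrna6, Chrnb2 and Chrnb3, and Lynx1, which encodes a modulator of nicotinic receptors. They were taken by gene symbol from a table of 24860 symbols, and all 9 were found. RNA sequencing had been done on 8 libraries of mouse retina, with retinal ganglion cells as the cell type in the labels, which send visual signals from the eye to the brain. For the 4 AAV2-shCX36 libraries the treatment was an adeno-associated virus with a hairpin that targets connexin 36, which electrically couples neurons of the retina. For the 4 AAV2-scramble libraries the virus carried the control hairpin, so both groups share the virus. Strain, age, injury, time after injection, the promoter of the hairpin and pooling of animals are not given in the sources used here. Nothing in the labels ties a library to an animal, and every p-value rests on the spread from library to library, which may be technical.

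Acetylcholine is the fast excitatory transmitter of the starburst amacrine cells, the interneurons that give the retina its sensitivity to the direction of motion and that drive waves of activity in the developing retina. Chat joins choline to an acetyl group, Slc18a3 loads the product into vesicles, Ache splits it after release and Slc5a7 takes the choline back up. Nicotinic receptors are channels of 5 subunits, and in the retina many of them lie on ganglion cells, where the alpha-6 and beta-3 subunits are characteristic.

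Levels are in FPKM, which corrects fragment counts for gene length and library size and so allows genes to be compared. Depth, estimated from the files, was roughly 35920000 to 38960000 fragments in each library. Each log2 difference subtracts AAV2-scramble from AAV2-shCX36 after log2(FPKM + 1), and its standard error (SE) is the moderated one of limma. A gene was called when its p, adjusted by Benjamini-Hochberg across the 12858 genes that averaged 1 FPKM or more, was under 0.05. Gjd2, the gene of connexin 36, had 15.6 ± 1.48 FPKM (SD, n = 4) in AAV2-shCX36 and 27.5 ± 11.3 in AAV2-scramble, with an adjusted p of 0.148 in limma, and its groups did not overlap. Gjd2 had 38.7 and 35.9 FPKM in AAV2-scramble 1 and 2 but 17.4 and 18.2 in AAV2-scramble 3 and 4, against 14.0 to 17.0 in AAV2-shCX36. Without AAV2-scramble 1 and 2 its log2 difference went from -0.70 to -0.19 (adjusted p = 0.245 in limma), with a 95% interval from -0.39 to 0.02. AAV2-scramble 1 and 2 stood apart from the other libraries. Their 7 oligodendrocyte markers (Mbp, Mog, Mag, Mobp, Cnp, Cldn11 and Mal) summed to 37.1 and 113 FPKM, against 10.7 to 14.2 in each of the other 6 libraries. The mean log2 level of the 13 tested ganglion cell markers was 6.31 and 6.01 in those 2 libraries and 6.58 to 6.78 in the rest. AAV2-scramble 3 and 4, the only controls left without them, stood apart in erythroid markers, which summed to 23.3 and 18.8 FPKM against 1.05 to 6.66 in the other 6 libraries. Values without AAV2-scramble 1 and 2 are given for each tested gene of the 9 and for genes of the pathway lists whose call changes.

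Among the receptor genes Chrna6, Chrnb3 and Chrnb2 were well expressed and Chrna3 was low, while transmitter genes were nearly absent. Over the 8 libraries Chrna6 had a mean of 199 FPKM, which ranked 151 of the 24860 symbols, and Lynx1 had 172 FPKM, which ranked 182. Chrnb3 followed with 97.9 FPKM, Ache with 37.0, Chrnb2 with 35.0 and Chrna3 with 6.38. Chat, Slc18a3 and Slc5a7 had means of 0.434, 0.383 and 0.348 FPKM. In this order the ranges of Chrna6 and Lynx1 overlapped, as did those of Lynx1 and Chrnb3, of Ache and Chrnb2, and of the last 3 genes. The lowest library of Chrnb3 (63.0 FPKM) lay above the highest of Ache (39.7 FPKM), the lowest of Chrnb2 (25.9) above the highest of Chrna3 (8.37), and the lowest of Chrna3 (4.57) above the highest of Chat (1.35). Lynx1 exceeded Chrnb3 in 8 of 8 libraries, and Chrna6 exceeded Lynx1 in 7.

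**Figure D1:**
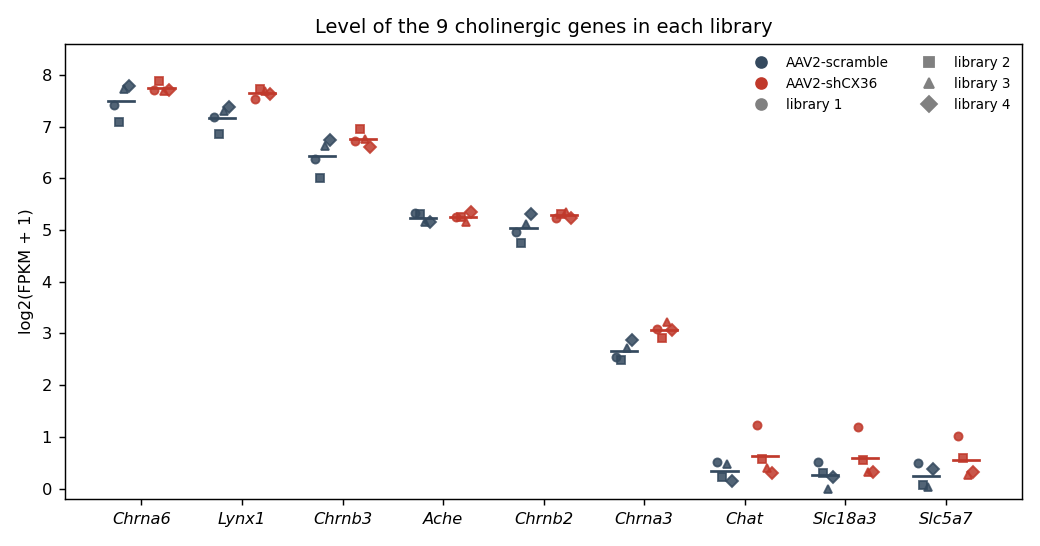
Level of each of the 9 genes in each library as log2(FPKM + 1), with the genes ordered by their mean. Symbols give the library number, colours the group and bars the mean of the 4 libraries. Chrna6, Lynx1 and Chrnb3 lie at the top, and Chat, Slc18a3 and Slc5a7 near 0.

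The name starburst was checked against markers of that cell. Fezf1, a transcription factor of starburst cells, had 0.0519 ± 0.0682 FPKM (SD, n = 4) in AAV2-shCX36 and 0.0628 ± 0.0301 in AAV2-scramble. Megf10 and Megf11, surface receptors that space starburst cells and are also made by other retinal cells, had 2.00 ± 0.305 and 7.88 ± 0.806 FPKM in AAV2-shCX36 and 3.24 ± 0.627 and 8.75 ± 0.646 in AAV2-scramble. Other genes of the starburst list that are also made elsewhere in the retina were higher, such as the transcription factors Six3, at 90.2 ± 5.60 and 72.0 ± 14.9 FPKM, and Isl1, at 28.0 ± 1.91 and 30.8 ± 13.7. Gad1, an enzyme of GABA synthesis in most amacrine cells, had 7.03 ± 1.46 and 8.57 ± 2.58 FPKM. Calb2 and Pax6, amacrine markers that ganglion cells also make, had 2559 ± 99.0 and 2107 ± 586 FPKM and 65.6 ± 1.58 and 55.5 ± 2.49 FPKM. Among ganglion cell genes, Rbpms was at 64.9 ± 5.35 and 46.4 ± 8.72 FPKM, Slc17a6 at 93.8 ± 5.63 and 80.03 ± 19.4, and Pou4f1 at 110.1 ± 6.63 and 98.2 ± 25.0. The starburst genes among the 9 are therefore described as low-level transcripts, and the receptor genes as transcripts of libraries rich in ganglion cell markers. In bulk RNA, fewer cells of a type and less RNA per cell cannot be told apart.

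Choline acetyltransferase, the enzyme that defines a cholinergic neuron, is encoded by Chat (GRCm38 chromosome 14, 32408203 to 32465989, minus strand, protein-coding). Chat had 1.35, 0.493, 0.318 and 0.227 FPKM in AAV2-shCX36 libraries 1 to 4 and 0.431, 0.169, 0.385 and 0.1005 FPKM in AAV2-scramble libraries 1 to 4. AAV2-shCX36 library 1 was the highest of the 8, and the remaining 7 overlapped between the groups.

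Slc18a3, the vesicular acetylcholine transporter, is a single-exon gene that lies inside the Chat gene on the same strand (chromosome 14, 32462438 to 32464850), with no shared exon bases in GENCODE vM21. Slc18a3 had 1.27, 0.463, 0.246 and 0.254 FPKM in AAV2-shCX36 libraries 1 to 4. In AAV2-scramble libraries 1, 2 and 4 it had 0.425, 0.231 and 0.170 FPKM, and in library 3 it was listed at 0. From the estimated depth, which is approximate, these values stand for about 117, 42, 22 and 23 fragments in AAV2-shCX36 and 39, 20, 0 and 16 in AAV2-scramble. In AAV2-scramble 3, a count of 0 allows up to 0.0329 FPKM, the value of 3 fragments, for counting error only.

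Slc5a7, the high-affinity choline transporter of cholinergic terminals (chromosome 17, 54273590 to 54299034, minus strand), had 1.03, 0.514, 0.197 and 0.252 FPKM in AAV2-shCX36 libraries 1 to 4. Its AAV2-scramble values were 0.417, 0.0508, 0.0240 and 0.299 FPKM in libraries 1 to 4. All 3 transmitter genes were thus highest in AAV2-shCX36 library 1, and their groups overlapped. Lens transcripts summed to 154, 14.1, 22.2 and 341 FPKM in AAV2-shCX36 libraries 1 to 4 and to 0.662 to 16.0 FPKM in AAV2-scramble. All 5 tested lens genes had positive differences, with a median of 2.44 on the log2 scale, and none was called. The part of lens or other tissue in these values was not tested.

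**Figure D2:**
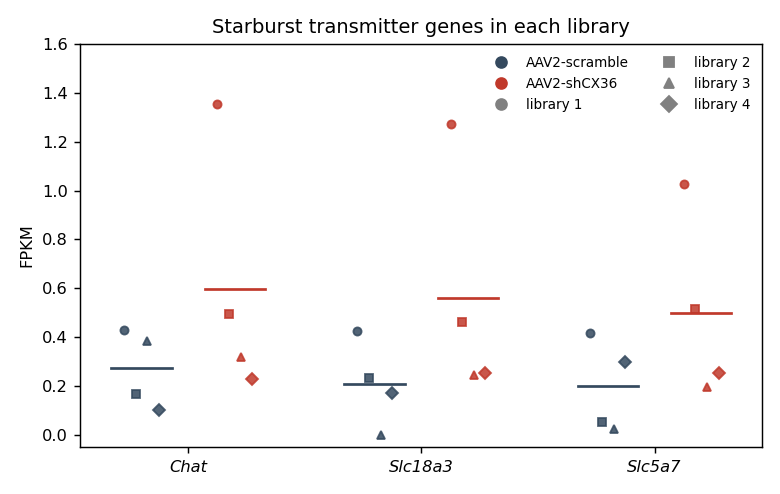
FPKM of Chat, Slc18a3 and Slc5a7 in each library, with group means as bars and library numbers as symbols. AAV2-shCX36 library 1 is the highest point for each gene, between 1.03 and 1.35 FPKM, and the other 7 libraries reach at most 0.514 FPKM.

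None of the 3 transmitter genes passed the filter on low values, so they were not tested in the main comparison. Group means of Chat were 0.598 ± 0.516 FPKM in AAV2-shCX36 and 0.271 ± 0.161 in AAV2-scramble (SD, n = 4), a log2 difference of 0.29, which was 0.09 without AAV2-shCX36 library 1. Log2 differences of Slc18a3 and Slc5a7 were 0.33 and 0.30, and 0.14 and 0.15 without that library. In a limma fit with no filter, over all 24860 genes, adjusted p was 0.559 for Chat, 0.483 for Slc18a3 and 0.482 for Slc5a7. None of the 3 was called in that fit.

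Acetylcholinesterase, the enzyme that ends cholinergic transmission, differed by less than the spread between libraries. Ache (chromosome 5, 137287519 to 137294466, plus strand) had 37.3, 37.2, 34.6 and 39.7 FPKM in AAV2-shCX36 libraries 1 to 4 and 39.5, 38.5, 34.7 and 34.7 FPKM in AAV2-scramble libraries 1 to 4. Its log2 difference was 0.01 ± 0.07 (SE), with a 95% interval from -0.14 to 0.16 and an adjusted p of 0.925 in limma. Without AAV2-scramble 1 and 2 it was 0.10 ± 0.06 (adjusted p = 0.401). Its log2 level spanned 0.19 over the 8 libraries, the smallest span of the 6 tested genes. Both AAV2-scramble 1 and 2 lay above AAV2-scramble 3 and 4, the reverse of their order in Chrna3, Chrna6, Chrnb2, Chrnb3 and Lynx1.

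The receptor subunits characteristic of ganglion cells had higher mean values in AAV2-shCX36, and none passed the test. Chrna6, the alpha-6 subunit (chromosome 8, 27403212 to 27413944, minus strand), had 208, 236, 205 and 209 FPKM in AAV2-shCX36 libraries 1 to 4. In AAV2-scramble it had 170.3, 135, 211 and 219 FPKM. Controls 3 and 4 lay within the AAV2-shCX36 range and controls 1 and 2 below it. The log2 difference of Chrna6 was 0.25 ± 0.14 (SE), with a 95% interval from -0.08 to 0.57 and an adjusted p of 0.341 in limma. Without AAV2-scramble 1 and 2 it was -0.0045 ± 0.07 with an interval from -0.16 to 0.15 (adjusted p = 0.978 in limma), and without AAV2-scramble 3 and 4 it was 0.50 ± 0.11 (adjusted p = 0.0139).

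Chrnb3, the beta-3 accessory subunit, lies beside Chrna6 on chromosome 8 (27368711 to 27399730, plus strand), with 3481 bases between the ends of the 2 genes. Chrnb3 had 105, 123, 108 and 97.0 FPKM in AAV2-shCX36 libraries 1 to 4 and 82.5, 63.0, 98.1 and 107 FPKM in AAV2-scramble libraries 1 to 4. Again only controls 1 and 2 lay below every AAV2-shCX36 library. Its log2 difference was 0.33 ± 0.15 (SE), with a 95% interval from -0.02 to 0.67 and an adjusted p of 0.246 in limma. It was 0.08 ± 0.09 without AAV2-scramble 1 and 2 (adjusted p = 0.653) and 0.57 ± 0.12 without AAV2-scramble 3 and 4 (adjusted p = 0.0142). The ratio of Chrnb3 to Chrna6 FPKM stayed between 0.463 and 0.526 in all 8 libraries, while the Chrna6 level itself ran from 135 to 236 FPKM.

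Chrnb2, the beta-2 subunit that pairs with alpha subunits in most neuronal receptors, had 36.8, 38.5, 39.9 and 36.8 FPKM in AAV2-shCX36 libraries 1 to 4 and 30.4, 25.9, 33.6 and 38.5 FPKM in AAV2-scramble libraries 1 to 4. AAV2-scramble 4 lay inside the AAV2-shCX36 range and the other controls below it. Its log2 difference was 0.25 ± 0.11 (SE), with an adjusted p of 0.206 in limma, and 0.08 ± 0.07 without AAV2-scramble 1 and 2 (adjusted p = 0.544). Without AAV2-scramble library 4 alone it was 0.34 ± 0.09 (adjusted p = 0.0481). With single libraries left out, Chrnb2 was called in 1 of 8 fits, and the adjusted p ran from 0.0481 to 0.374 in limma. The Chrnb2 gene (chromosome 3, 89746195 to 89764632, minus strand) runs into Adar on the opposite strand, and 1365 of its 8380 exon bases in GENCODE vM21 (16.3%) are also exon bases of Adar. In RefSeq the gap between the 2 gene ends is -8 bases, a much shorter overlap. Adar, an interferon-inducible RNA-editing enzyme, had 54.2 ± 3.02 FPKM in AAV2-shCX36 and 43.1 ± 4.86 in AAV2-scramble (SD, n = 4). The sources used here do not say if fragments were assigned by strand or which annotation was used. The part of Adar fragments in the Chrnb2 values was not tested.

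Chrna3, the alpha-3 subunit of ganglionic receptors (chromosome 9, 55010111 to 55026562, minus strand), had 7.45, 6.53, 8.37 and 7.37 FPKM in AAV2-shCX36 libraries 1 to 4. Its AAV2-scramble values were 4.87, 4.57, 5.58 and 6.31 FPKM. Every AAV2-shCX36 library lay above every control. Means were 7.43 ± 0.751 and 5.33 ± 0.773 FPKM (SD, n = 4), a log2 difference of 0.42 ± 0.11 (SE) with a 95% interval from 0.18 to 0.66, and the adjusted p was 0.0604 in limma. Leaving out AAV2-scramble library 4 gave an adjusted p of 0.0278 and a log2 difference of 0.49, and leaving out AAV2-scramble 1 and 2 together gave 0.145 and 0.28. With single libraries left out, Chrna3 was called in 1 of 8 fits, and the adjusted p ran from 0.0278 to 0.159 in limma.

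Lynx1 rose after AAV2-shCX36. It encodes a small membrane-anchored protein of the Ly6 family that binds nicotinic receptors and lowers their response to acetylcholine (chromosome 15, 74747852 to 74753046, minus strand). Lynx1 had 185, 210.1, 207 and 197 FPKM in AAV2-shCX36 libraries 1 to 4 and 144, 115, 156 and 165 FPKM in AAV2-scramble libraries 1 to 4, so the groups did not overlap. Means were 199.6 ± 11.4 and 145 ± 21.8 FPKM (SD, n = 4), 1.38-fold higher in AAV2-shCX36, with a log2 difference of 0.47 ± 0.11 (SE) and a 95% interval from 0.22 to 0.72. The adjusted p was 0.0442 in limma. With single libraries left out, the call held only without AAV2-scramble 2 or 4, and the adjusted p ran from 0.0263 to 0.136. Without AAV2-scramble 1 and 2 together the log2 difference was 0.31 ± 0.07 (adjusted p = 0.0316).

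Of the 6 tested genes, Lynx1 was therefore the 1 called, against 2.24% of all 12858 tested genes called higher, and none was called lower, against 2.52% (4.76% in either direction). An unadjusted p under 0.05, higher, was reached by 3 of the 6 (Lynx1, Chrna3 and Chrnb2), against 12.3% of all genes, and by none in the lower direction, against 10.3%. Further, 2 of the 6 (Lynx1 and Chrna3) had groups that did not overlap, higher, against 8.85%, and none had separate groups in the lower direction, against 7.05%. The median log2 difference of the 6 was 0.29, and that of all tested genes 0.01. With so few genes these shares are a description.

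**Figure D3:**
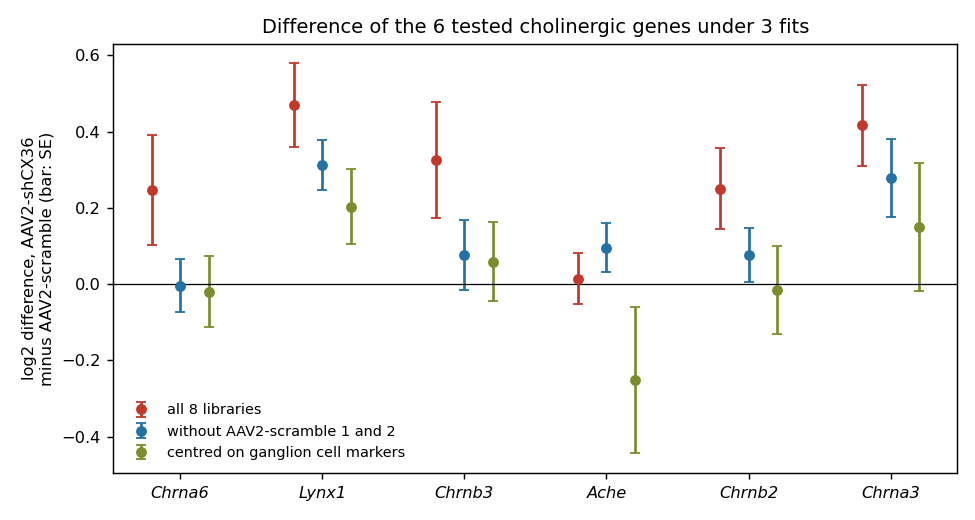
Log2 difference (points) and SE (bars) of the 6 tested genes with all 8 libraries, without AAV2-scramble 1 and 2, and with each library centred on its ganglion cell markers. The points of Lynx1, Chrna3 and Chrnb3 lie above 0 in the 3 fits. The SE bar of Chrna3 crosses 0 with centring, and that of Chrnb3 crosses 0 both with centring and without AAV2-scramble 1 and 2. Without AAV2-scramble 1 and 2 and with centring Chrna6 lies at -0.0045 and -0.02, Chrnb2 at 0.08 and -0.02 and Chrnb3 at 0.08 and 0.06.

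The levels of Chrna6, Chrnb2 and Chrnb3, and less closely those of Lynx1 and Chrna3, moved with the markers of ganglion cells. Relative to the mean log2 level of the 13 markers, Chrna6 lay within a range of 0.20 over the 8 libraries, whereas its own log2 level spanned 0.80. For Chrnb2 the span fell from 0.60 to 0.22 in the same way, for Chrnb3 from 0.96 to 0.27, for Lynx1 from 0.87 to 0.39 and for Chrna3 from 0.75 to 0.40. Ache went the other way, from 0.19 to 0.92. Subunits outside the 9 genes were not set against the markers in this way. The log2 differences of those tested were -0.20 for Chrna7, -0.01 for Chrna4, 0.46 for Chrnb1 and 0.51 for Chrnb4.

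A fit with every library centred on those markers, added after seeing the data, moved the median difference of all genes from 0.01 to -0.26. Under it the log2 difference of Chrna6 was -0.02 ± 0.09 (SE), of Chrnb2 -0.02 ± 0.12, of Chrnb3 0.06 ± 0.10, of Chrna3 0.15 ± 0.17 and of Ache -0.25 ± 0.19, with adjusted p from 0.448 to 0.923 in limma. Lynx1 had 0.20 ± 0.10 and an adjusted p of 0.351. Relative to the markers Lynx1 was 0.93, 0.98, 0.96 and 0.95 in AAV2-shCX36 libraries 1 to 4 and 0.87, 0.85, 0.71 and 0.59 in AAV2-scramble libraries 1 to 4, so its groups still did not overlap. With this centring and without AAV2-scramble 1 and 2, Lynx1 had a log2 difference of 0.31 ± 0.07 and an adjusted p of 0.0608.

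**Figure D4:**
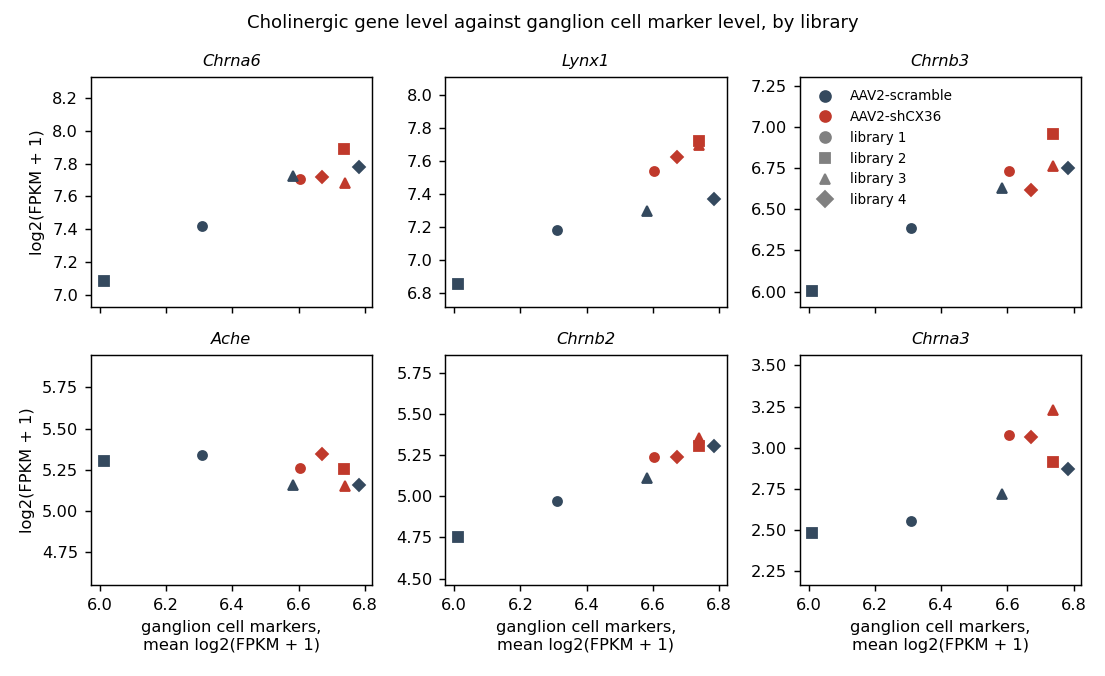
Log2(FPKM + 1) of each tested gene against the mean log2(FPKM + 1) of the 13 ganglion cell markers, with 1 symbol per library and an equal vertical span in each panel. AAV2-scramble 1 and 2 lie at 6.31 and 6.01 on the marker axis and are the lowest points for Chrna6, Lynx1, Chrnb3, Chrnb2 and Chrna3, but not for Ache.

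The most abundant subunits held similar shares of the nicotinic subunit pool in all libraries, and minor subunits varied more. The 12 subunit genes in the table summed to between 246 and 423 FPKM per library. Chrna6 held 55.4 ± 1.16% of that sum in AAV2-shCX36 and 56.2 ± 1.29% in AAV2-scramble (SD, n = 4), Chrnb3 27.9 ± 1.19% and 26.8 ± 0.808%, and Chrnb2 9.83 ± 0.592% and 9.90 ± 0.546%. Chrna3 held 1.93 ± 0.279% and 1.65 ± 0.143%. Over the 8 libraries Chrna7 ranged from 0.909% to 2.87%, Chrnb4 from 1.04% to 2.29% and Chrnb1 from 0.165% to 0.553%. These are shares of FPKM, which is already corrected for gene length. Lynx1 per Chrnb2 FPKM was 5.02 to 5.46 in AAV2-shCX36 and 4.28 to 4.75 in AAV2-scramble, without overlap.

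Genes whose profile over the 8 libraries was closest to that of Chrna6 were Ube2l3, Rbpms2 and Nell1. The measure was the root mean square difference between 2 genes' log2 values, each standardised over the 8 libraries, and it was 0.124, 0.126 and 0.127 for these genes, against a median of 1.41 over all tested genes. Rbpms2 stands in the list of ganglion cell markers. Among the 9 genes the nearest to Chrna6 was Chrnb3 at 0.213, then Chrnb2 at 0.365 and Lynx1 at 0.489. For Chat the nearest tested genes were Gtf2a1 (0.289), Amotl2 (0.339) and Mrgbp (0.341), and the nearest of the 9 were Slc18a3 at 0.482 and Slc5a7 at 0.570.

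Promoter sequences were matched for 6 of the 9 genes in RefSeq on GRCm38.p6. The 250 bases before the start are shown for Chrna3 and Chrnb2, which are measured well above 0, and for Slc18a3 and Slc5a7, which are near 0, to set the DNA of both kinds side by side. Capitals mark the GC box, GGGCGG on either strand, and all are written 5′ to 3′ on the strand of the gene. The windows are chr9:55026563-55026812, chr3:89764633-89764882, chr14:32464851-32465100 and chr17:54299035-54299284, each on the minus strand.
Chrna3: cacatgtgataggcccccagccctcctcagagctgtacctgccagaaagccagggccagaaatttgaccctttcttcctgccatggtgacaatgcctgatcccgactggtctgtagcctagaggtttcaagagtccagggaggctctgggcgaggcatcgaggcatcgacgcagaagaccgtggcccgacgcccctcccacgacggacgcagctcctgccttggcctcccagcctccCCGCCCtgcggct
Chrnb2: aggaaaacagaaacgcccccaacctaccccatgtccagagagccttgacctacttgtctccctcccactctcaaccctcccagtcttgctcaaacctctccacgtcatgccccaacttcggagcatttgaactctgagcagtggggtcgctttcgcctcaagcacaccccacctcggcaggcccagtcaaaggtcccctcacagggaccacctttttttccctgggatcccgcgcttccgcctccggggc
Slc18a3: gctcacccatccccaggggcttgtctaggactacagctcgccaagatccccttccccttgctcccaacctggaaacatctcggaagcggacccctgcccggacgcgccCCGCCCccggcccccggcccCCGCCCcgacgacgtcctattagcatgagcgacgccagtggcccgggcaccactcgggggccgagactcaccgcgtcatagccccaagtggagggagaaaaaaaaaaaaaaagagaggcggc
Slc5a7: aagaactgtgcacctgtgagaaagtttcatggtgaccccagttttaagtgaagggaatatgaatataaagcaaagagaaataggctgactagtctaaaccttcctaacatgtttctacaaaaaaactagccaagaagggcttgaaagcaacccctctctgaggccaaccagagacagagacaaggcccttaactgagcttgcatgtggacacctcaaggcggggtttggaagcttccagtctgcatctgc
Bases G and C made up 63.2% of the Chrna3 window, 59.6% of Chrnb2, 66% of Slc18a3 and 45.6% of Slc5a7, against a median of 52.4% over 32851 promoter windows of the same length. The CpG dinucleotide occurred 13, 10, 21 and 1 times, against a median of 6. GC boxes were found once in Chrna3, 2 times in Slc18a3 and not in the Chrnb2 and Slc5a7 windows, and 32.7% of all windows hold at least 1, with overlapping matches counted. TATAAA, searched on both strands, was found in Slc5a7 alone of the 4 and in 12.4% of all windows. Slc18a3 and Slc5a7 thus lay at opposite ends of the 4 in base composition. Of the matched windows not shown, Ache had 73.6% G and C, above Slc18a3, and Chat 54.8%. In the Slc18a3 window 59 of the 250 bases are exon bases outside Slc18a3 in GENCODE vM21. Slc18a3 starts 1139 bases downstream of the Chat start in GENCODE vM21.

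The other nicotinic subunits were low, and none of them was called. Of 12 listed, 8 were in the table and 4 were tested. Chrnb4, which forms receptors with Chrna3, had 7.27 ± 1.21 FPKM in AAV2-shCX36 and 4.97 ± 1.83 in AAV2-scramble (SD, n = 4; adjusted p = 0.185 in limma), and Chrnb1, a subunit of the muscle receptor, had 1.62 ± 0.479 and 0.895 ± 0.325 FPKM (adjusted p = 0.159). Chrna4 had 5.43 ± 0.475 and 5.48 ± 0.644 FPKM, and Chrna7 4.53 ± 0.294 and 5.53 ± 1.73. Of the 4, 2 had an unadjusted p under 0.05, both higher, against 12.3% of all tested genes. The median log2 difference of the 4 was 0.23.

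Muscarinic receptors answer acetylcholine through G proteins, and 2 of 5 were tested. Chrm2 had 2.77 ± 0.808 FPKM in AAV2-shCX36 and 1.59 ± 0.305 in AAV2-scramble, a log2 difference of 0.52 ± 0.16 (SE; adjusted p = 0.1003 in limma). Chrm3 had 3.38 ± 0.296 and 2.57 ± 0.283 FPKM, a log2 difference of 0.30 ± 0.10 (adjusted p = 0.115). The groups did not overlap in either gene, as in 8.85% of all tested genes in the higher direction, yet neither was called. The filter left out Chrm1, Chrm4 and Chrm5, with means of at most 0.516 FPKM in either group.

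Genes that fold, carry or modulate nicotinic receptors included none past the threshold among 7 tested of 11 listed. Ric3, a chaperone of nicotinic receptors, had 28.1 ± 1.13 FPKM in AAV2-shCX36 and 25.2 ± 4.15 in AAV2-scramble (adjusted p = 0.405 in limma). Ly6e, a Ly6 relative of Lynx1 that is also an interferon-inducible gene, had 54.4 ± 5.72 and 30.8 ± 10.2 FPKM, a log2 difference of 0.86 ± 0.21 (SE; adjusted p = 0.0528). Ly6e was called in 9 of 23 alternatives, and without AAV2-scramble 1 and 2 its log2 difference was 1.26 ± 0.11 (adjusted p = 0.00122). Lypd6, another Ly6 relative, had a log2 difference of -0.07 ± 0.14 with all libraries and -0.32 ± 0.07 (adjusted p = 0.0338) without those 2. Lypd6b had 3.44 ± 0.386 and 2.66 ± 0.510 FPKM (adjusted p = 0.211). The median log2 difference of the 7 was 0.16, with 5 positive and 2 negative values. Slurp2, whose name RefSeq also lists as a synonym of Lynx1, was listed at 0 in 7 libraries, and whether its fragments were counted to Lynx1 was not tested.

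Choline supply included 1 gene that rose among 10 tested of 16 listed, and none that fell. Of all tested genes, 2.24% were called higher and 2.52% lower. Pemt, which makes phosphatidylcholine by methylation, rose from 1.25 ± 0.236 to 2.23 ± 0.357 FPKM (SD, n = 4), a log2 difference of 0.52 ± 0.12 (SE; adjusted p = 0.0472 in limma). Its call held only without AAV2-scramble library 4 when single libraries were left out, with adjusted p from 0.0431 to 0.148, and the adjusted p was 0.117 without AAV2-scramble 1 and 2. Pemt was called in 5 of 22 alternatives. Slc44a1, a choline transporter-like protein, had 6.37 ± 0.435 FPKM in AAV2-shCX36 and 8.27 ± 1.46 in AAV2-scramble (log2 difference -0.32 ± 0.11, adjusted p = 0.135). Without AAV2-scramble 1 and 2, Gpcpd1, which breaks down glycerophosphocholine, went from a log2 difference of 0.27 (adjusted p = 0.202) to 0.42 (adjusted p = 0.0186), and Slc44a2, a choline transporter-like protein, from 0.20 (adjusted p = 0.362) to 0.41 (adjusted p = 0.0351). The median log2 difference of the 10 was 0.13. Prima1, the membrane anchor of acetylcholinesterase, was the 1 tested of 3 breakdown partners, with 2.57 ± 0.599 and 1.85 ± 0.543 FPKM (adjusted p = 0.279).

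**Figure D5:**
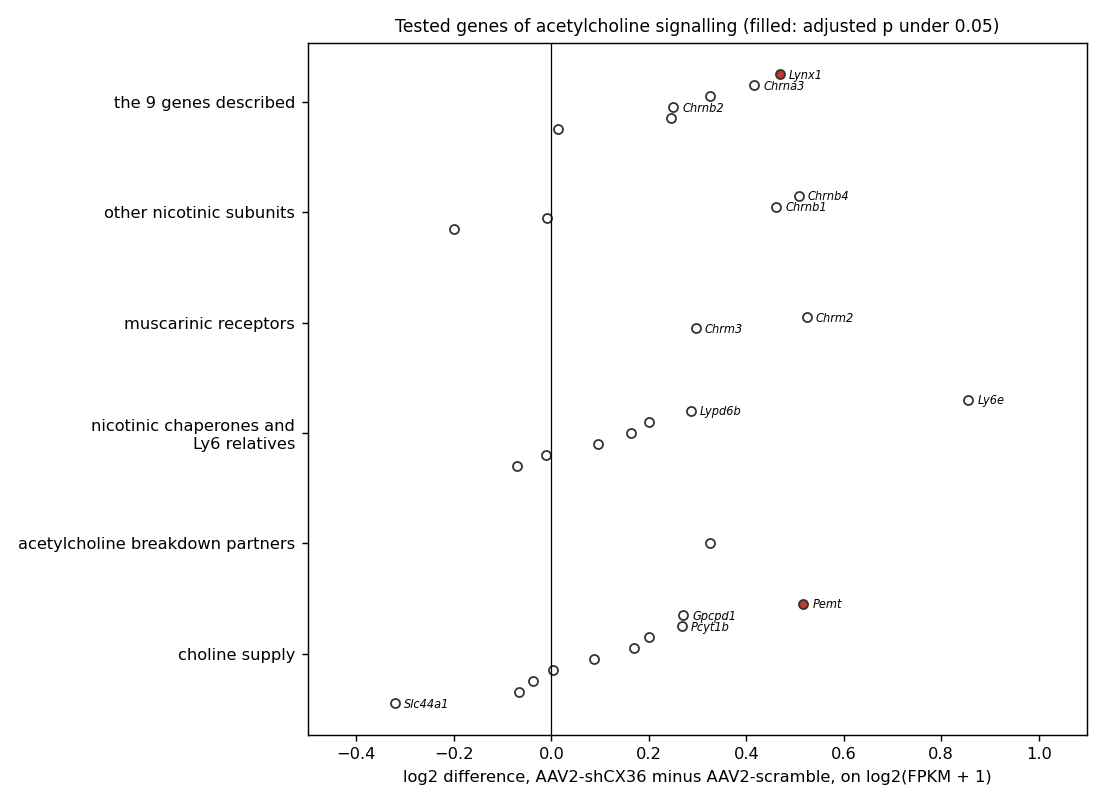
Log2 difference of each tested gene of acetylcholine signalling, grouped by list, with genes at an unadjusted p under 0.05 named. Filled points, Lynx1 and Pemt, had an adjusted p under 0.05, and Ly6e lies farthest to the right at 0.86.

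Amacrine and starburst markers moved with these results as follows. None of 5 tested starburst markers was called. 4 of the 5 had negative differences, with a median of -0.14, and Megf10 had a log2 difference of -0.49 ± 0.13 (SE; adjusted p = 0.0643 in limma), with groups that did not overlap. Among 9 tested general amacrine markers Pax6, also made by ganglion cells, rose and Tfap2b fell, and the median was -0.03. The ganglion cell list had a median of 0.33 with 12 of 13 positive and none called. Skeletal muscle markers summed to 1.52 to 3.01 FPKM per library in both groups together. Of the other retinal cells, 7 of 10 tested rod markers and 5 of 8 tested Müller glia markers fell, against 2.52% of all tested genes. Sums of the rod and Müller glia markers were 1076 to 1513 and 266 to 428 FPKM in AAV2-shCX36. In AAV2-scramble they were 1716 to 2452 and 527 to 853 FPKM. Microglia markers summed to 111 to 188 FPKM in AAV2-shCX36 and to 542, 513, 262 and 121 FPKM in AAV2-scramble libraries 1 to 4. The part of these cells in the values of the cholinergic genes was not tested.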

How the data were processed

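RNA was sequenced from 8 libraries, and the submitters deposited 1 table with a value per gene and library. The deposited values are FPKM, per the file headers. The submitters' processing notes name fastp, HISAT2, HTSeq, DESeq2 and R 3.2.0 with the builds GRCm38 and mm10, without versions for the other tools. Strand setting and annotation are not given in the sources used here. No value column was left without a sample.

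Values were taken as log2(FPKM + 1), genes with a mean under 1 FPKM were left out, and limma 3.58.1 in R 4.3.3 was fitted to the 4 libraries of each group with a variance trend and Benjamini-Hochberg adjustment over 12858 genes. Intervals of differences are at 95%. The pseudocount of 1 FPKM makes a fold change on this scale understate that of low genes. All other tables were made with pandas 2.3.3 and numpy 2.4.6 under Python 3.11.15, and plots with matplotlib 3.10.9. Low values of genes with 1 exon served to estimate depth. Since only 22.0% to 28.6% of low values came out whole within 0.03, it is approximate, and no count test was run. The fit was tested on simulated data of 12858 genes, where 64% of the 1.5-fold changes, 86% of the 2-fold, 98% of the 4-fold and 100% of the 8-fold changes were recovered. Of 185 calls there, 11 were of unchanged genes. Whether these shares hold for the real libraries, which differ in their cell type markers, was not tested.

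The genes and lists were chosen with earlier results of these data known. The text names all 9 genes, and from each other pathway list the called genes or else the 2 with the smallest p. It names up to 3 genes listed first in each marker list and the 3 genes most like Chat and Chrna6. Adar, Chrna4, Chrna7, Ric3, Lypd6, Slc44a1, Gpcpd1, Slc44a2, Six3, Isl1, Calb2, Pax6, Tfap2b, Bche, Slc35d3 and Chrm1 were named after their values were seen. Positions come from GENCODE vM21 on GRCm38, matched by symbol. In all, 23 alternatives were tried, 2 of them added after seeing the data. A gene of the oligodendrocyte list is not reported here, and the list was summed without it.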

Additional observations from a re-analysis of the deposited data

Results flagged for a closer look

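In 3 of 52 groups of 4 libraries the highest library lay far from the rest, past Dixon's 95% critical value for the gap divided by the range. Chance alone gives such a library in about 1 of 20 groups. Chrna6 reached 235.5 FPKM in AAV2-shCX36 library 2, with a gap of 0.841 of the range. Ly6e, a Ly6 relative of Lynx1, reached 63.0 FPKM in AAV2-shCX36 library 1, with a gap of 0.907 of the range. Lypd6b reached 4.02 FPKM in AAV2-shCX36 library 3, with a gap of 0.967 of the range.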

How the results depend on the processing

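Of 205 values of single genes under the alternatives, 153 kept their direction and side of the threshold. Another 30 were no longer past it, 7 newly passed it and 11 changed sign. The last 4, of genes not tested in the main fit, moved by more than the spread. Among them were Chat, Slc18a3 and Slc5a7 with a pseudocount of 0.1, which changes the scale of low values. Lynx1 was called in 10 of 23 alternatives and was positive in all 23. The number of the 9 genes called higher, 1 as reported, was 0 with median-of-ratios scaling, with no filter, with no variance trend, without AAV2-shCX36 1 and 4, and with centring on ganglion cell markers, with or without AAV2-scramble 1 and 2. It was 2 with library weights (Chrna3 and Lynx1) and 5 without AAV2-scramble 3 and 4, and 0 to 3 with 1 library left out. No alternative called any of the 9 lower. Among the other pathway lists the number called higher, 1 as reported, was 0 with a pseudocount of 0.1, quantile normalization, no filter, AAV2-shCX36 1 and 4 left out, or marker centring, 3 without AAV2-scramble 1 and 2 (Gpcpd1, Ly6e and Slc44a2), 6 without AAV2-scramble 3 and 4, and 0 to 2 with 1 library left out. The 1 gene called higher was Ly6e in place of Pemt with median-of-ratios scaling, a filter of mean 5 FPKM, library weights, or without AAV2-scramble 1. In these lists the number called lower was 0 as reported and 1 without AAV2-scramble 1 and 2 (Lypd6) or 3 and 4 (Chrna7).

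Over all genes, 288 were called higher and 324 lower. The same pair of counts was 177 and 134 with no filter, 46 and 76 with marker centring, 1542 and 1914 when AAV2-scramble 3 and 4 were left out, and 68 and 28 when AAV2-shCX36 1 and 4 were. Leaving out AAV2-scramble 1 and 2 gave 565 higher and 393 lower, and marker centring as well gave 223 higher and 149 lower. With 1 library left out the counts ran from 96 to 575 higher and from 70 to 591 lower, the highest of each without AAV2-scramble 4. The sign of Ache turned to -0.022 with quantile normalization, -0.068 without AAV2-scramble 3 and 4, -0.035 without AAV2-shCX36 1 and 4 and -0.25 with marker centring, and ran from -0.017 to 0.048 with 1 library left out, with -0.017 without AAV2-shCX36 4 and -0.013 and -0.014 without AAV2-scramble 3 and 4 in turn. Chrna6 was at -0.0045 without AAV2-scramble 1 and 2, -0.021 with marker centring and -0.0098 with both, and Chrnb2 at -0.017 with marker centring. The cause was not tested.

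With the replicate block 107 genes were called higher and 57 lower, 0 of the 9 genes and 0 of the pathway lists. The correlation of same-numbered libraries was 0.128, -0.302, 0.226 and -0.269, and 2 of 8 libraries correlated best with their own number. Libraries within a group also differ in their cell type markers, so these correlations cannot decide if equal numbers pair libraries. The labels do not say that they do. Depth limits Chat, Slc18a3 and Slc5a7 most, since 3 fragments are worth about 0.0329 FPKM of Slc18a3 in AAV2-scramble 3.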

Other observations

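Some low genes around acetylcholine were lower in AAV2-shCX36 but too low for the main test. Bche, a second cholinesterase of broader substrate range, had means of 0.121 FPKM in AAV2-shCX36 and 0.365 FPKM in AAV2-scramble, and its groups did not overlap. Of the genes in the main test, to which Bche does not belong, 7.05% had groups that did not overlap in the lower direction. No such share was worked out for genes left out by the filter. In the limma fit with no filter Bche had an adjusted p of 0.189 and was not called. Slc35d3, from the list of starburst markers, had 0.102 and 0.252 FPKM. Other genes left out by the filter were higher in AAV2-shCX36, such as Chrm1 with 0.516 and 0.325 FPKM and overlapping groups.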
